A study of Mus musculus with 12 samples.

Results

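The cytosolic heat shock chaperones are 10 genes: the transcription factor Hsf1, the Hsp70 genes Hspa1a, Hspa1b and Hspa8, the Hsp90 genes Hsp90aa1 and Hsp90ab1, the Hsp40 gene Dnajb1, the small heat shock protein genes Hspb1 and Hspb8, and the Hsp110 gene Hsph1. Their members on the array were all probesets that the platform annotation gives to 1 of these genes alone, which found 22 probesets for 8 of the 10 genes, of 45037 probesets and 18193 genes tested. Hsf1 and Hsp90ab1 had no such probeset in the annotation used and were not analysed here. RNA of liver homogenates was profiled on 12 Affymetrix mouse arrays, 1 animal each, in 4 groups of 3: wild-type animals given vehicle, wild-type animals given TM, Atf6a-/- animals given vehicle, and Atf6a-/- animals given TM. TM (tunicamycin), which inhibits N-linked glycosylation and thereby causes endoplasmic reticulum (ER) stress, was injected intraperitoneally at 2 mg/kg in 150 mM dextrose, the vehicle was dextrose alone, and livers were taken 8 h later. Animals were of variable age and gender, and the sources used here give neither for a single animal. Atf6a-/- animals lack ATF6α, one of the ER stress sensors. The values are RMA intensities on the log2 scale, so that a difference of 1 is a change of 2-fold.

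Cytosolic chaperones hold newly made or unfolded proteins and let them fold again. Hsp70 proteins work with Hsp40 partners, which deliver clients and stimulate their ATPase, and with exchange factors such as Hsp110 and the BAG proteins, which release nucleotide. Hsp90 acts later, on clients such as steroid receptors and kinases, with its own co-chaperones, and small heat shock proteins bind unfolded protein without ATP. When unfolded protein builds up in the cytosol, HSF1 is set free from chaperones, forms trimers and binds heat shock elements in the promoters of these genes. Unfolded protein in the ER is sensed by another system, the unfolded protein response, whose branches run through IRE1, PERK and ATF6α and whose targets include the ER-resident relatives of these chaperones. In liver, Hspa8 is the constitutive Hsp70 and Hspa1a and Hspa1b are the inducible forms.

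The promoters of the inducible Hsp70 pair, of Hspb1 and of Hsph1 were searched for the sequence to which HSF1 binds and are shown because their transcripts are followed below. RefSeq windows (GRCm38.p6, 250 bases before to 50 after the transcription start) were found for 6 of the 10 genes, in 8 windows, since Hsph1 and Dnajb1 have 2 starts each. Hsp90aa1, Hspa8, Hsf1 and Hsp90ab1 had no window, so their promoters were not searched. The 250 bases before the start are given 5′ to 3′ on the strand of the gene, with capitals on each run of the letters TTCNNGAA or GAANNTTC, which is 2 units of a heat shock element.

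Hspa1a, chr17:34972157-34972406, minus strand: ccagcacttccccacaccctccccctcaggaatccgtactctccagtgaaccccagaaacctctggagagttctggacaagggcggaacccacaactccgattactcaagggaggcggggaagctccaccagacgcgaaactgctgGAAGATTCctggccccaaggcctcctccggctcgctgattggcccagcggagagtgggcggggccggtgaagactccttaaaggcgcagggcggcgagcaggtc

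Hspa1b, chr17:34959239-34959488, minus strand: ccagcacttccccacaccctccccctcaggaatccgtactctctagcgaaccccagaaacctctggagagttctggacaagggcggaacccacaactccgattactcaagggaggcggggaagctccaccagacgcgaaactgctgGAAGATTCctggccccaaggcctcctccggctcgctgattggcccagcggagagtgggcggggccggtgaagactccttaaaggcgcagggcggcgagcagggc

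Hspb1, chr5:135887669-135887918, plus strand: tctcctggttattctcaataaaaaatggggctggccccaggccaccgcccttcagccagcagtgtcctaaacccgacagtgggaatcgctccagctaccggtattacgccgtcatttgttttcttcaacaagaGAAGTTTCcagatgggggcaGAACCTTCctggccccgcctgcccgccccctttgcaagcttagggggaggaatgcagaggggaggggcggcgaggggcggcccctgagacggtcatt

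The 2-unit element was present in 15.1% of the 32851 windows of all genes and in the windows of 5 of the 6 member genes, all but Dnajb1. Hspa1a and Hspa1b carried it at the same place, starting 104 bases before the start, in upstream sequences that differed at 3 of 250 bases. Hspb1 carried it at 117 and at 97 bases before the start, and Hspb8 at 3 bases after it. A run of 3 units, TTCNNGAANNTTC or GAANNTTCNNGAA, was found in 0.603% of all windows and, among the members, in that of Hsph1 alone. Both elements of Hsph1, the short one before and the long one after the start (chr5:149636362-149636369 and chr5:149636288-149636300, minus strand), are shown with their flanks, and for the long one the letters of the 2-unit element overlap those of the run of 3 units.

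Hsph1, before the start: tagaatctTTCTCGAAggctcgag

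Hsph1, after the start: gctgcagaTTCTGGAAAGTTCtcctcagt

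The ER stress response element, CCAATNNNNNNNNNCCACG, to which ATF6α binds with NF-Y, was searched on both strands and was in none of the member windows and in 0.119% of all windows. These are matches of letters and say nothing of binding in these livers.

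The 6 hepatocyte markers, Alb and Apoa1 among them, were above the median of all probesets on each of the 12 arrays, with a mean level of 13.95 to 14.14. Atf6, the deleted gene, read 8.74, 9.47 and 8.90 in wild-type and 7.03, 7.15 and 7.79 in Atf6a-/- animals with vehicle, and 10.75, 11.16 and 11.01 against 10.19, 9.76 and 10.50 under TM. The Atf6a-/- arrays were below the wild-type arrays in both pairs of groups, but neither difference passed the test over all probesets (-1.71 with adjusted p = 0.184 and -0.82 with adjusted p = 0.0905), and whether the probeset lies in the deleted part is not given in the sources used here. One array in each group carried Y-linked signal: wild-type vehicle animal 2, wild-type TM animal 1, Atf6a-/- vehicle animal 3 and Atf6a-/- TM animal 2. Over all probesets wild-type vehicle animal 2 correlated at r = 0.987 and 0.988 with the other arrays of its group and at 0.996 with Atf6a-/- vehicle animal 3. In bulk tissue, fewer cells of a type and less RNA per cell cannot be told apart.

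TM did not raise any of the 22 member probesets past the test in either genotype, and Hsp90aa1 was the gene that fell in both. In wild-type animals 0 member probesets were called higher, against 7.1% of all probesets, and 3 were called lower, against 4.95% of all. In Atf6a-/- animals 0 were called higher, against 10.6%, and 4 lower, against 5.95%. A call needed an adjusted p under 0.05 in limma, with Benjamini-Hochberg adjustment over all 45037 probesets, and a change of over 1.5-fold. All 3 wild-type calls were probesets of Hsp90aa1, and the 4 calls in Atf6a-/- animals were the same 3 probesets and 1 of Hspa1b. At an unadjusted p under 0.05 there were 3 of the 22 in wild-type and 5 in Atf6a-/- animals, against 28.6% and 38.9% of all probesets. The 3 TM arrays lay beyond the 3 vehicle arrays for 0 member probesets upward and 5 downward in wild-type animals, where the share of all probesets was 14.5% and 18.3%, and for 0 and 6 in Atf6a-/- animals, where it was 17.3% and 26.2%. The median difference over the 8 genes, each by its brightest probeset, was -0.07 in wild-type and -0.03 in Atf6a-/- animals, beside -0.06 and -0.10 over all genes. A p-value above the threshold does not show that a gene did not change, and the intervals in the plot of all 22 probesets give the size of change that remains possible.

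**Figure D1:**
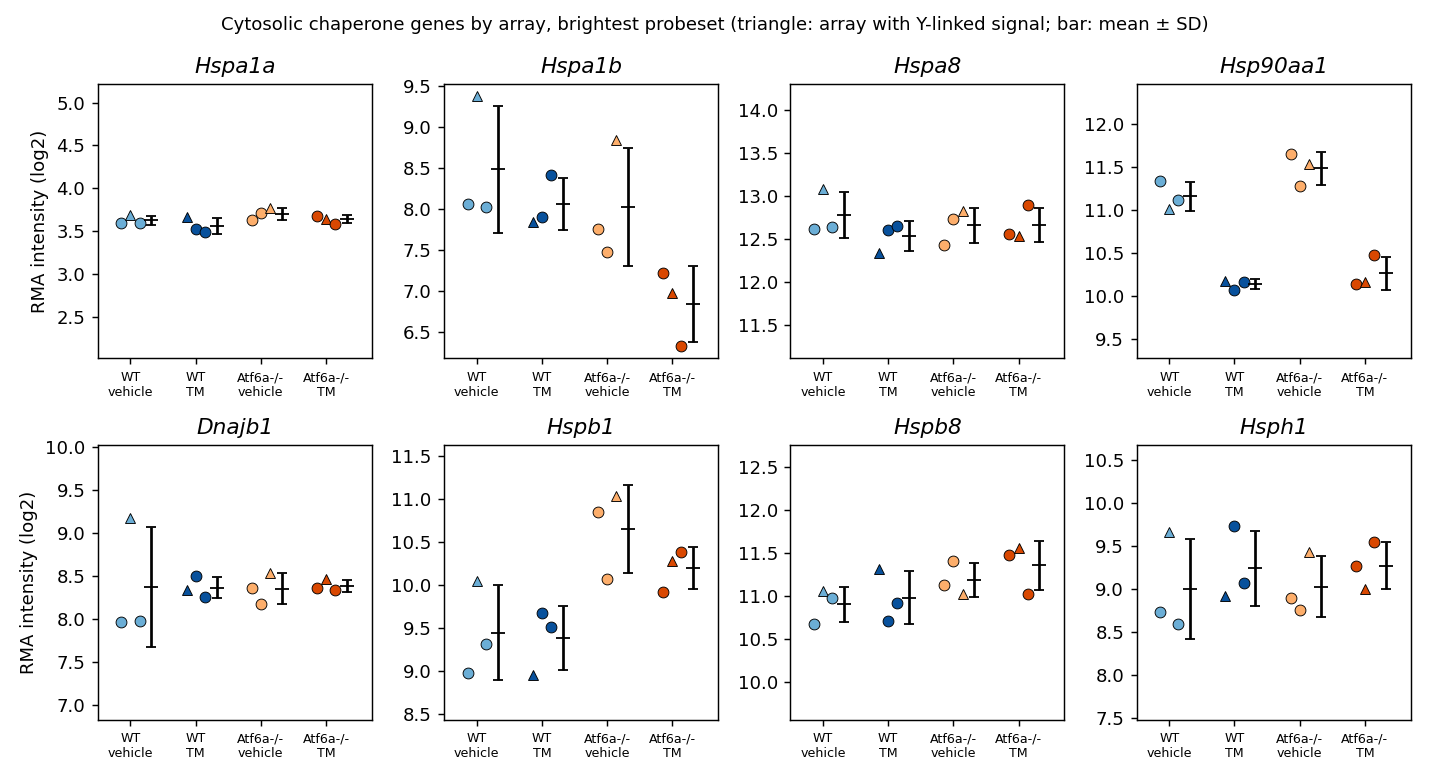
RMA intensity (log2) of the brightest probeset of each of the 8 measured genes on the 12 arrays; each point is 1 animal, triangles are the arrays with Y-linked signal, and the bar is the mean ± SD of the 3 animals. Hsp90aa1 lies near 11 to 11.7 with vehicle and near 10.1 to 10.5 under TM, with no overlap, while in the panels of Hspa1b, Dnajb1, Hspb1 and Hsph1 the triangle of wild-type vehicle is the highest point of its group.

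Hsp90aa1 encodes the inducible Hsp90α, on chromosome 12 (chr12:110691036-110696395, GRCm38.p6). Its brightest probeset (1438902_a_at) read 11.34, 11.02 and 11.12 in wild-type animals with vehicle and 10.17, 10.07 and 10.16 under TM. Atf6a-/- animals read 11.65, 11.28 and 11.53 with vehicle and 10.14, 10.17 and 10.48 under TM. Every TM array was below every vehicle array in both genotypes, and the arrays of each treated group lay within 0.34 of one another. The change was -1.02 ± 0.13 (SE, n = 3 against 3), or 2.03-fold lower, in wild-type (adjusted p = 1.18e-04) and -1.22 ± 0.13, or 2.34-fold lower, in Atf6a-/- animals (adjusted p = 2.01e-05).

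The other bright probesets of Hsp90aa1 moved with it. 1426645_at fell by 1.15 on the log2 scale in wild-type (10.79, 10.99 and 10.87 to 9.79, 9.72 and 9.70) and by 1.41 in Atf6a-/- animals (11.46, 11.07 and 11.32 to 9.47, 9.98 and 10.16). 1437497_a_at fell by 0.89 in wild-type (adjusted p = 0.0153) and by 1.43 in Atf6a-/- animals (adjusted p = 4.93e-04), again with no overlap of the arrays. Its wild-type call was the less firm: it was lost without wild-type vehicle animal 2 (adjusted p = 0.0516), without wild-type TM animal 2 (0.0544) and without the 4 arrays with Y-linked signal (0.0996), in a range from 0.00491 to 0.117 over its alternatives. The remaining probesets, 1433251_at and 1441827_x_at, were below the median of every array (4.98 to 5.11) on all 12 arrays, at 3.19 to 4.86, and were not called. They give no level of the transcript.

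The fall of Hsp90aa1 was not shown to differ between the genotypes. The difference between the responses was -0.20 (95% interval -0.59 to 0.19, adjusted p = 0.765) for 1438902_a_at. With vehicle, the Atf6a-/- arrays of that probeset were 0.33 above the wild-type arrays on average, with overlap, and under TM 0.13 above them, and neither passed the test (adjusted p = 1.00 and 0.753).

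Hspa1b, the inducible Hsp70 gene, spread widely within the groups. Its brightest probeset (1452318_a_at) read 8.06, 9.38 and 8.02 in wild-type animals with vehicle and 7.84, 7.91 and 8.42 under TM. Atf6a-/- animals read 7.75, 7.48 and 8.84 with vehicle and 7.22, 6.98 and 6.33 under TM. The Atf6a-/- animals given TM were the lowest 3 of the 12, and 1 vehicle animal of each genotype stood above the rest, in both cases the animal with Y-linked signal. In wild-type animals the groups overlapped, and the change was -0.43 ± 0.40 (adjusted p = 0.551). In Atf6a-/- animals it was -1.18 ± 0.40, or 2.27-fold lower, with no overlap (adjusted p = 0.0453).

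That call of Hspa1b in Atf6a-/- animals sat at the threshold. It was lost in 12 of its 28 alternatives, whose adjusted p ran from 0.0149 to 0.192, and it was kept without the 4 arrays with Y-linked signal (-0.84, adjusted p = 0.0445). Leaving out 1 array ended it for wild-type TM animal 1, 2 or 3, for Atf6a-/- vehicle animal 1 or 3, and for Atf6a-/- TM animal 2 or 3. The other probesets of Hspa1b, 1427127_x_at and 1427126_at, differed by -1.10 and -0.93 in the same comparison and were not called (adjusted p = 0.144 and 0.255). The wild-type change turned its sign without wild-type vehicle animal 2, to 0.02, and without the 4 arrays with Y-linked signal, to 0.12, and was called under none of its alternatives.

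Hspa1a, whose upstream sequence is shown above beside that of Hspa1b, has 1 probeset of its own (1452388_at), which read 3.49 to 3.77 on all arrays, below every array median. No level of Hspa1a can be drawn from it. The coding sequences of this gene pair are nearly identical, and whether the probesets named for Hspa1b also read Hspa1a transcripts was not tested.

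Hspa8, the constitutive Hsp70, was not called in any comparison. Its brightest probeset (1420623_x_at) read 12.61, 13.08 and 12.64 in wild-type animals with vehicle and 12.33, 12.60 and 12.65 under TM. Atf6a-/- animals read 12.43, 12.73 and 12.82 with vehicle and 12.56, 12.54 and 12.90 under TM. The groups overlapped in both genotypes, with a change of -0.25 (95% interval -0.59 to 0.09) in wild-type and 0.00 (-0.34 to 0.35) in Atf6a-/- animals. The other 3 probesets of the gene differed by -0.53 to -0.19 in wild-type and by -0.19 to 0.04 in Atf6a-/- animals, all uncalled, and for 1420622_a_at and 1431182_at the wild-type TM arrays lay below all vehicle arrays.

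Dnajb1, the stress-inducible Hsp40 partner of Hsp70, read 7.97, 9.17 and 7.97 in wild-type animals with vehicle and 8.33, 8.50 and 8.26 under TM by its brightest probeset (1416755_at). The Atf6a-/- animals read 8.35, 8.17 and 8.53 with vehicle, then 8.36, 8.46 and 8.34. Apart from wild-type vehicle animal 2, the arrays lay between 7.97 and 8.53. The change was -0.01 (95% interval -0.55 to 0.54) in wild-type and 0.03 (-0.51 to 0.58) in Atf6a-/- animals. Without the 4 arrays with Y-linked signal, the wild-type difference was 0.41 (adjusted p = 0.0580, of 0.0388 to 0.995 over its alternatives), with no call under any of them.

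Hsph1, the Hsp110 exchange factor of Hsp70, was also uncalled with all arrays, and its wild-type value moved with single animals. Its brightest probeset (1425993_a_at) read 8.74, 9.66 and 8.59 in wild-type animals with vehicle and 8.92, 9.74 and 9.07 under TM, and in Atf6a-/- animals 8.90, 8.76 and 9.43, then 9.27, 9.0 and 9.55. Wild-type vehicle animal 2 read close to the highest animals given TM, and wild-type TM animal 2 was the highest of all. The change was 0.24 ± 0.29 in wild-type (adjusted p = 0.657) and 0.25 ± 0.29 in Atf6a-/- animals (adjusted p = 0.563). The second probeset (1423566_a_at) read 6.76, 8.23 and 7.16, then 7.45, 8.01 and 7.83 in wild-type animals, a change of 0.38 (adjusted p = 0.516).

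Without wild-type TM animal 2 the difference of 1425993_a_at was -0.0049, and without wild-type vehicle animal 2 it was 0.58, neither of them called. Without wild-type vehicle animal 2, 1423566_a_at of Hsph1 was called higher in wild-type animals given TM (0.80, adjusted p = 0.0463), and without the 4 arrays with Y-linked signal both probesets were (0.96 and 0.74, adjusted p = 0.0202 and 0.0317). Over all alternatives their adjusted p ran from 0.0202 to 0.937 and from 0.0317 to 0.995. No alternative gave a call in Atf6a-/- animals.

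Hspb1 and Hspb8, the small heat shock proteins among the members, did not pass the test for TM. Hspb1 read 8.97, 10.05 and 9.32 in wild-type animals with vehicle and 8.96, 9.67 and 9.51 under TM (1422943_a_at), a change of -0.07 (95% interval -0.71 to 0.58). In Atf6a-/- animals it read 10.85, 10.07 and 11.04, then 9.92, 10.29 and 10.39, a change of -0.45 (-1.10 to 0.19). The TM and vehicle arrays overlapped in both genotypes. Hspb8, which works with the exchange factor Bag3 in selective autophagy, read 10.67, 11.06 and 10.97 in wild-type animals with vehicle and 11.31, 10.71 and 10.92 under TM (1417013_at). Hspb8 in Atf6a-/- animals read 11.13, 11.41 and 11.02 with vehicle and 11.48, 11.56 and 11.03 under TM. Its changes were 0.08 (-0.31 to 0.47) and 0.17 (-0.23 to 0.56), and its other probesets were uncalled as well.

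**Figure D2:**
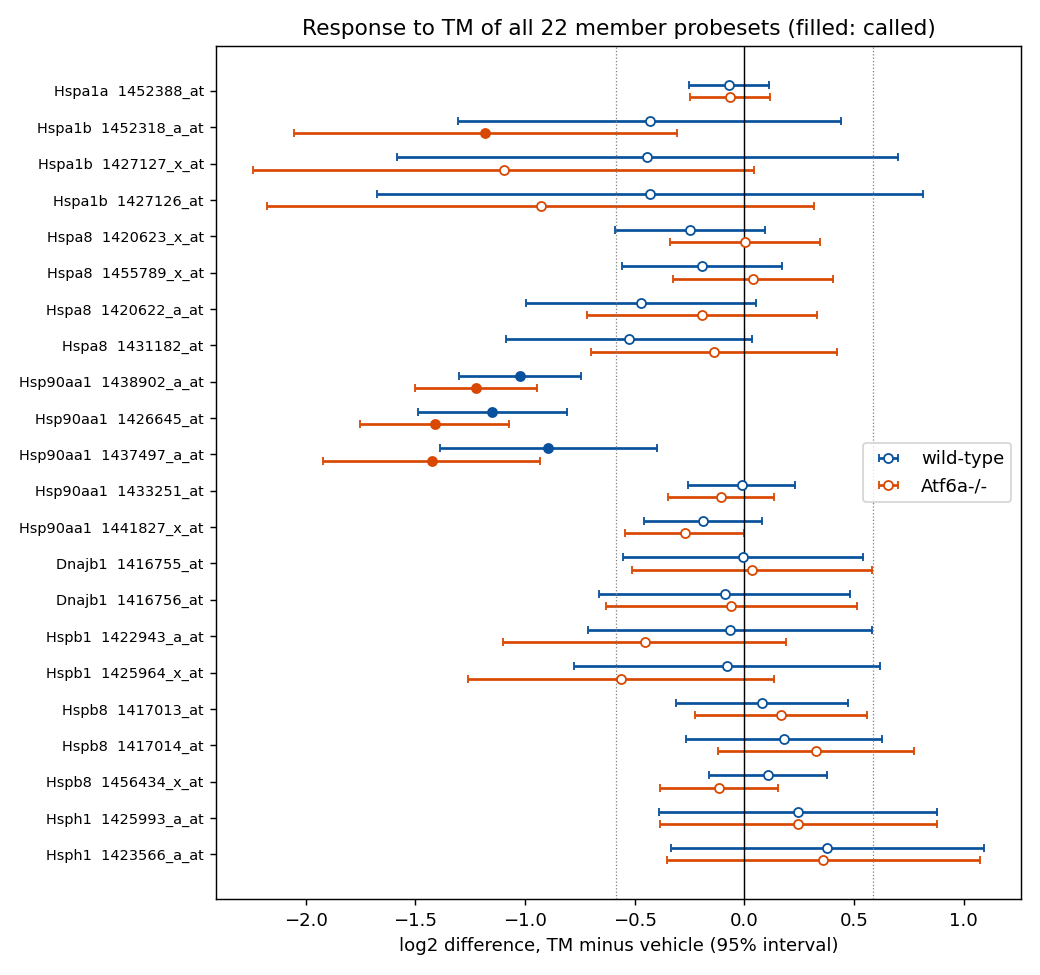
Difference between TM and vehicle on the log2 scale, with the 95% interval from limma, for all 22 member probesets in wild-type (blue) and Atf6a-/- (orange) animals; filled points were called and dotted lines mark 1.5-fold. The filled points are 3 probesets of Hsp90aa1 in each genotype, from -0.89 to -1.43, and 1452318_a_at of Hspa1b in Atf6a-/- animals at -1.18.

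The genotypes were compared directly, in animals given TM and, on other arrays, in animals given vehicle. No member probeset was called in either direction. Under TM 1.92% of all probesets were called higher and 1.19% lower in Atf6a-/- animals, and with vehicle 0% of all probesets were called in either direction. At an unadjusted p under 0.05 there were 5 of the 22 in each comparison, against 14.6% of all probesets under TM and 3.59% with vehicle. They belonged to Hspa1b and Hspb1 under TM and to Hspb1 and Hsp90aa1 with vehicle. All 3 arrays of one genotype lay beyond all 3 of the other for 5 member probesets under TM, 2 higher and 3 lower, where the share of all probesets was 10.2% and 9.24%, and for 3 with vehicle, all higher, against 4.94% of all higher and 3.56% lower.

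Hspb1 read higher in Atf6a-/- than in wild-type animals on every array, in both treatments. With vehicle the difference of 1422943_a_at was 1.21 ± 0.30, or 2.31-fold (95% interval 0.56 to 1.85, unadjusted p = 0.00151 in limma), but the adjusted p was 1.00. Under TM it was 0.82 ± 0.30, or 1.76-fold (0.17 to 1.47, adjusted p = 0.186). The lowest Atf6a-/- array with vehicle, at 10.07, was 0.02 above the highest wild-type array, at 10.05, so the gap between the groups was narrow there. The second probeset, 1425964_x_at, differed by 1.37 and 0.89, without overlap of the arrays. Without wild-type vehicle animal 2, it was called with vehicle (1.73, adjusted p = 0.0425, of 0.0425 to 1.00 over its alternatives). The difference fails the correction over all probesets and is reported as such.

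Hspa1b read lower in Atf6a-/- than in wild-type animals under TM. The 3 Atf6a-/- arrays of 1452318_a_at, from 6.33 to 7.22, were below the 3 wild-type arrays, from 7.84 to 8.42. The difference was -1.21 ± 0.40, or 2.32-fold (95% interval -2.09 to -0.34), with adjusted p = 0.136. The other probesets differed by -1.38 and -1.37 (adjusted p = 0.215 and 0.279), also without overlap. Without the 4 arrays with Y-linked signal all 3 were called (-1.39, -1.72 and -1.70, adjusted p = 0.0174, 0.0228 and 0.0115), and their adjusted p ran up to 0.382, 0.529 and 0.572 under the other alternatives. With vehicle, the arrays overlapped and the difference was -0.47 (-1.34 to 0.41).

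The difference between the 2 genotypes in the response to TM was called for 0 of the 22 member probesets, where 0.655% of all probesets were called higher and 0.582% lower, and 0 of the 22 had an unadjusted p under 0.05 in limma, against 11.1% of all probesets. For Hspa1b the difference of the responses was -0.75 (95% interval -1.98 to 0.49), so that neither an equal response nor one more than 2-fold apart is excluded by these arrays.

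**Figure D3:**
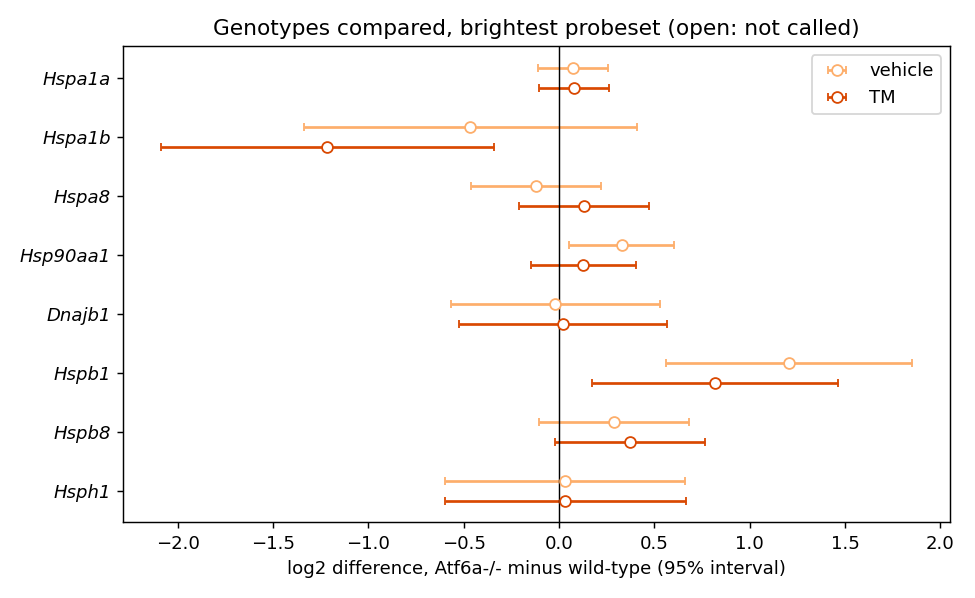
Difference between Atf6a-/- and wild-type animals on the log2 scale, with the 95% interval from limma, for the brightest probeset of each gene, with vehicle and under TM; all points are open because none was called. The intervals of Hspb1 lie above 0 in both treatments and that of Hspa1b lies below 0 under TM (-2.09 to -0.34).

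Within the vehicle groups, 1 animal of each genotype stood above the others for most of the family. By the brightest probeset, 7 genes were above the median of every array, which leaves out Hspa1a. Of these 7, wild-type vehicle animal 2 was the highest of its group for 6, all but Hsp90aa1. For 1426645_at and 1437497_a_at of Hsp90aa1 it was the highest as well, 0.16 and 0.59 above the mean of the other 2 animals. In this animal 10 of the 22 member probesets were over 1.5-fold above that mean, against 3.39% of all probesets. They belonged to Hspa1b, Dnajb1, Hspb1, Hsph1 and Hsp90aa1, mostly more than 1 to a gene, so they are not separate genes. By its brightest probeset, Hsp90aa1 was the lowest of the group in this animal (11.02, or -0.21 from that mean). Atf6a-/- vehicle animal 3 was the highest for 5 of the 7 genes. In it 4 of the 22 probesets, of Hspa1b and Hsph1, were over 1.5-fold above the others, against 1.59% of all. Among the animals given TM, Atf6a-/- animal 3, without Y-linked signal, was the highest for 4 of the 7 genes. It had 3 of 22 probesets, of Hspa8 and Hsph1, over 1.5-fold above the others, against 2.48% of all. With Y-linked signal, wild-type TM animal 1 had 0 of 22 and Atf6a-/- TM animal 2 had 1. Without it, wild-type TM animals 2 and 3 had 1 and 2, and Atf6a-/- TM animal 1 had 1. In these treated animals the share of all probesets ran from 0.546% to 1.54%. In wild-type vehicle animal 2 the excess was 1.34 for Hspa1b, 1.20 for Dnajb1, 1.00 for Hsph1, 0.91 for Hspb1 and 0.46 for Hspa8. In Atf6a-/- vehicle animal 3 it was 1.23 for Hspa1b, 0.60 for Hsph1, 0.58 for Hspb1, 0.27 for Dnajb1 and 0.24 for Hspa8.

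Other genes of the pathway, and some outside it, were high in these animals too. Bag3, an HSF1 target, was 1.07 above the other animals in wild-type animal 2 and 0.67 in Atf6a-/- animal 3, and Dnaja1, an Hsp40, was 0.63 and 0.28 above. Stip1 and Hspe1 differed by 0.02 and -0.28, then -0.11 and 0.01. Of 62 measured genes of the pathway, 35 were highest in wild-type animal 2 of its group, or 56.5%, beside 34% of all genes. Of the same genes, 31 were highest in Atf6a-/- animal 3, or 50%, beside 36.2% of all genes. Atf6a-/- TM animal 3 was the highest of its group for 45.2% of the pathway genes, beside 29.5% of all genes. Of the ER chaperones, Hspa5 (BiP) was 0.83 and Dnajb9 0.98 above the others in wild-type animal 2 and 0.18 and 0.39 in Atf6a-/- animal 3. Hsp90b1 and Sdf2l1 differed by -0.19 and -0.08 in wild-type animal 2 and by -0.07 and 0.12 in Atf6a-/- animal 3. Wild-type animal 2 was the highest for 4 of the 7. In the Atf6a-/- vehicle group, animal 1 was the highest for 5 of the 7 and animal 3 for 2. Wild-type animal 2 and Atf6a-/- animal 3 carried Y-linked signal. They had the lowest mean of the Kupffer cell markers in their groups, 9.20 beside 10.01 and 10.10, and 9.31 beside 9.96 and 9.99. They were also the lowest of their groups for the mean of the sinusoidal endothelial (8.44 and 8.40), stellate (8.31 and 8.42), neutrophil (5.30 and 5.58) and lymphocyte markers (5.02 and 5.04). Only 1 of the 4 neutrophil and 1 of the 5 lymphocyte markers were above the median on all arrays. For the cholangiocyte markers wild-type animal 2 was the highest of its group (5.609) and Atf6a-/- animal 3 the lowest (5.475). The part of these differences in the excess of the heat shock genes was not tested.

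**Figure D4:**
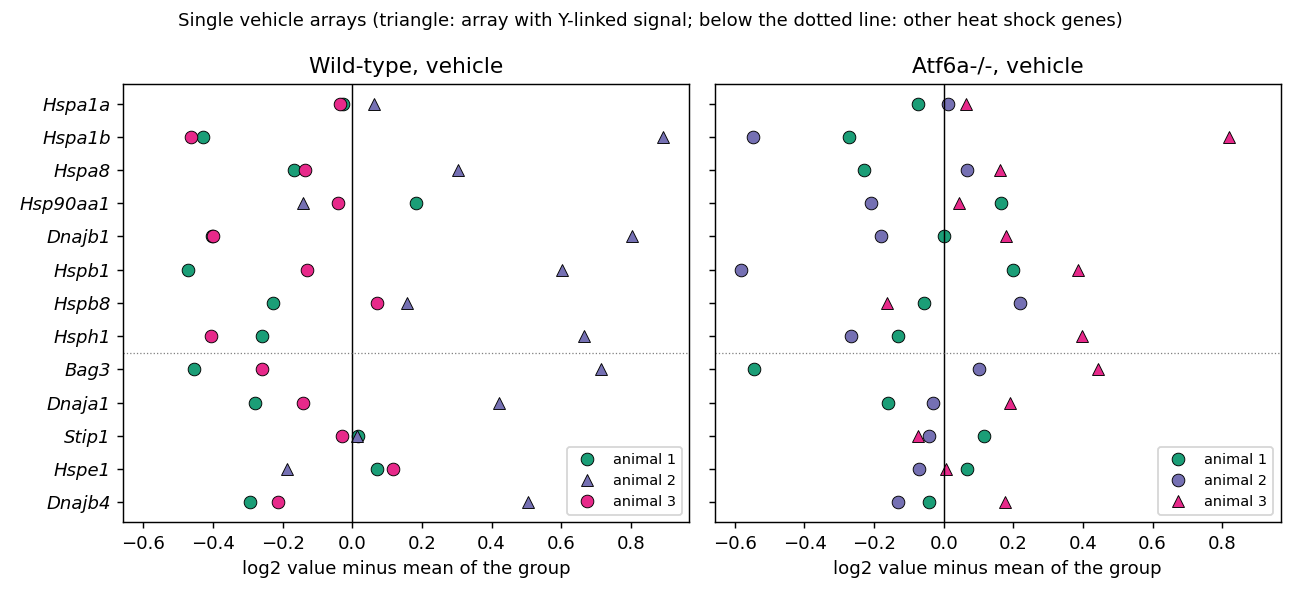
Value of each vehicle animal minus the mean of its group (log2) for the 8 measured members and, below the dotted line, for Bag3, Dnaja1, Stip1, Hspe1 and Dnajb4; triangles mark arrays with Y-linked signal. Wild-type animal 2 is the rightmost point in 6 of the 7 member rows other than Hspa1a and Atf6a-/- animal 3 in 5 of 7. Dnajb4 is the gene most like Hspa1b over these same arrays (r = 0.95), so its row is not independent of that of Hspa1b.

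After the group means were removed, Hspa1b, Hspa8, Dnajb1, Hspb1 and Hsph1 correlated positively in each pair over the 12 arrays, though not on every array. In Atf6a-/- TM animal 3, Hspa1b and Dnajb1 differed from the mean of the other animals of the group by -0.77 and -0.08. Hspa8, Hspb1 and Hsph1 differed there by 0.35, 0.28 and 0.41. Pearson's r of the deviations ran from 0.45, between Hspa1b and Hspa8, to 0.79, between Dnajb1 and Hsph1. It was 0.57 between Hspa1b and Hsph1, 0.59 between Hspa8 and Dnajb1 and 0.74 between Hspa1b and Dnajb1. With Hsp90aa1 these genes had r from -0.33 (Dnajb1) to 0.07 (Hspb1). With Hspb8 they had r from -0.42 (Hsph1) to 0.15 (Dnajb1), and r between Hspb8 and Hsp90aa1 was -0.64. These are descriptions over 12 arrays that share the animals named above. Over the same arrays, the gene whose values were most like those of Hspa1b was Dnajb4, another Hsp40 (r = 0.95 of 18192 genes compared), followed by 1110059G10Rik and 4833439L19Rik (0.92 and 0.91). For Hsph1 these were Noct, Aak1 and Zranb2 (0.93, 0.91 and 0.91), and for Hspa8 4930438A08Rik, Zfp423 and Dpm1 (0.90, 0.89 and 0.84).

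The partners of these chaperones were read from lists of 66 cytosolic genes, of which 62 had a probeset of their own. In wild-type animals TM raised 6 and lowered 3 of the 62, beside 8.92% and 6.9% of all genes, and in Atf6a-/- animals it raised 11 and lowered 7, beside 13.1% and 8.21%. Bag3 rose by 1.91 ± 0.29 in wild-type (8.20, 9.37 and 8.40 to 10.52, 10.70 and 10.49; adjusted p = 5.01e-04) and by 1.71 in Atf6a-/- animals (7.91, 8.55 and 8.89 to 10.21, 9.89 and 10.39; adjusted p = 7.44e-04). Its TM arrays were above all vehicle arrays, wild-type vehicle animal 2 included. Bag5, another exchange factor, rose by 0.91 and by 1.76 (adjusted p = 7.34e-04 and 3.38e-06), and under TM it was 0.79 above wild-type in Atf6a-/- animals (adjusted p = 0.00832), as was Bag4 by 0.62 (adjusted p = 0.0279). These were the 2 of the 62 called higher in that comparison, beside 2.89% of all genes, and 1 was called lower, beside 1.53%.

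Of the 13 measured co-chaperones of Hsp90, TM raised 1 and lowered 1 past the test in wild-type animals, beside 8.92% and 6.9% of all genes, and it raised 3 and lowered 2 in Atf6a-/- animals, beside 13.1% and 8.21%. Fkbp4, an immunophilin of steroid receptor complexes, fell by 1.38 in wild-type (10.10, 10.13 and 10.05 to 8.70, 8.53 and 8.92) and by 1.45 in Atf6a-/- animals. Fkbp5, the related immunophilin that glucocorticoids induce, rose by 1.10 and 1.54 (adjusted p = 0.00301 and 1.82e-04). Stip1, which links Hsp70 to Hsp90, fell by 0.83 in Atf6a-/- animals (adjusted p = 4.23e-05), and in wild-type animals it differed by -0.31, under the limit of 1.5-fold. Unc45a, a co-chaperone for myosin, was called higher in Atf6a-/- animals at 0.85 and differed by 0.51 in wild-type animals.

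Among the other relatives, Hspa4l of the Hsp110 group fell by 0.96 and 1.02, and Hspa14, an Hsp70 of the ribosome, rose by 0.69 and 0.79. Hspa4 rose by 0.98 in Atf6a-/- animals and differed by 0.53 in wild-type animals. Of the 9 Hsp40 genes, Dnajc2, the partner of Hspa14 on the ribosome, rose in both genotypes by 0.61 and 0.83 and Dnaja2 in Atf6a-/- animals by 0.62, while Dnaja1 differed by -0.42 and -0.04 without a call. Serpinh1, a collagen chaperone of the ER that HSF1 induces, fell by 1.19 and 0.95, and Hmox1, the stress-inducible heme oxygenase, rose by 1.25 in Atf6a-/- animals and differed by 0.55 in wild-type animals. Cryab, a small heat shock protein, fell by 0.70 and the exchange factor Bag1 by 0.68 in Atf6a-/- animals, with uncalled values of -0.54 and -0.32 in wild-type animals. Hspe1, the mitochondrial partner of Hsp60, differed by -0.28 and -0.12 and was not called. Of the 28 markers of nonparenchymal and blood cells, 2 were called lower with TM in wild-type animals, Kdr of endothelial and Lrat of stellate cells, beside 6.9% of all genes, and 0 higher. In Atf6a-/- animals 5 were called lower, Marco and Adgre1 of Kupffer cells, Lrat, Krt19 of cholangiocytes and Ms4a1 of B cells, the last below the median of every array, beside 8.21%, and 1 higher, Lyve1 of endothelial cells. The neutrophil markers had medians of -0.70 and -0.96 with 0 of 4 called. The part of these differences in the values above was not tested.

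None of the 8 subunits of the chaperonin TRiC was called in any of the 5 comparisons. The same held for the 4 genes of the HSF family list, Hsf2, Hsf4, Hsf5 and Hsbp1. Of all genes, TM raised 8.92% and lowered 6.9% in wild-type and raised 13.1% and lowered 8.21% in Atf6a-/- animals. Under TM, 2.89% were higher and 1.53% lower in Atf6a-/- than in wild-type animals. At such shares, lists of 8 and 4 genes can hold no call without differing from all genes. Hsf2 and Hsf5 were below the median of every array and give no level of their transcripts, and Hsf4 was near the medians. For Hsbp1 the TM differences were -0.42 (wild-type, adjusted p = 0.0192 in limma) and -0.57 (Atf6a-/-, adjusted p = 0.00195). Its TM arrays lay below all vehicle arrays of each genotype, and only the limit of 1.5-fold kept it uncalled. Of the 6 prefoldin subunits, Vbp1 was called higher with TM in wild-type animals (0.78) and lower in Atf6a-/- than in wild-type animals under TM (-0.62). Pfdn4 rose by 0.66 and Pfdn1 fell by 0.68 in Atf6a-/- animals. With vehicle, and for the difference between the responses, 0 of the 62 genes were called in limma, beside 0% of all genes with vehicle and, for the difference between the responses, 1.06% higher and 0.748% lower.

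The relatives of these chaperones in the ER, listed for comparison, rose in the same livers. All 7 were called higher with TM in wild-type animals, beside 8.92% of all genes, with a median of 2.07. In Atf6a-/- animals 6 of 7, all but Hyou1, were called higher, beside 13.1% of all genes, with a median of 1.07. The medians of the 8 cytosolic members were -0.07 and -0.03. Under TM, 4 of the 7, Hsp90b1, Sdf2l1, Dnajb11 and Dnajc3, were called lower in Atf6a-/- than in wild-type animals, beside 1.53% of all genes. Of the 8 cytosolic members 0 were called lower, though Hspa1b differed by -1.21 without overlap of the arrays (adjusted p = 0.136 in limma).

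**Figure D5:**
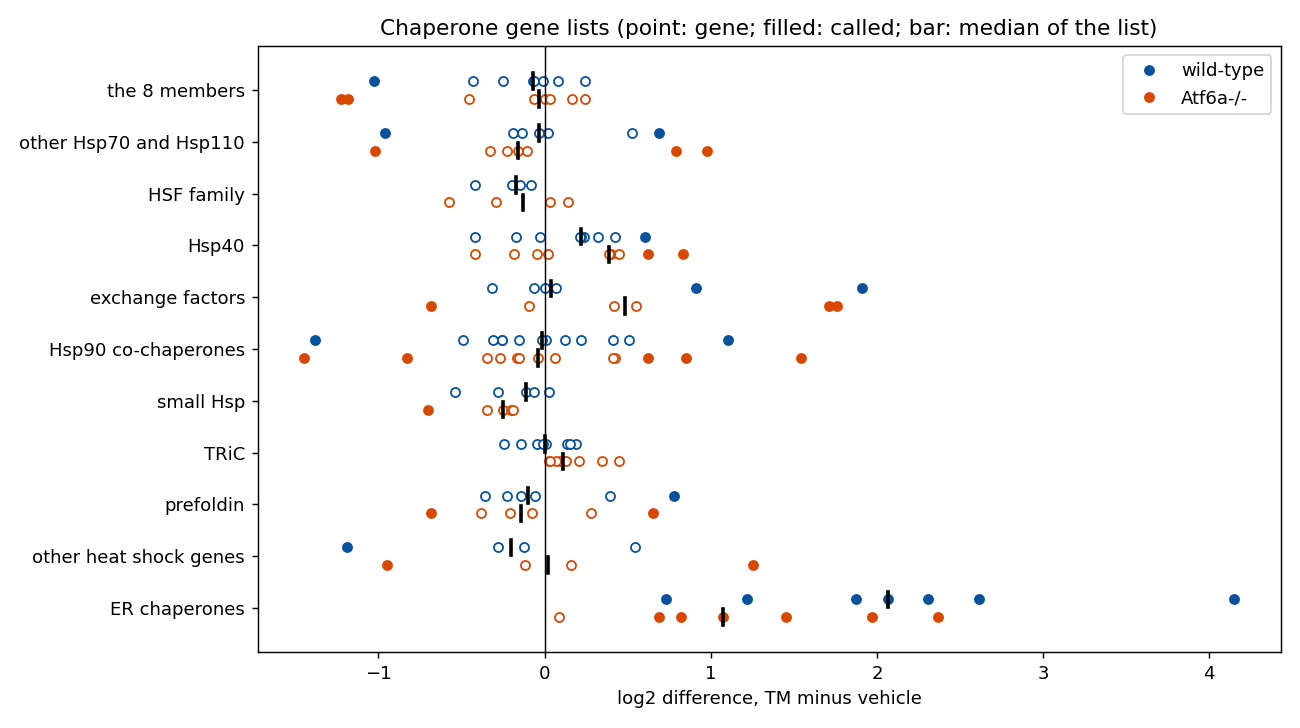
Difference between TM and vehicle (log2) of each gene of the lists by its brightest probeset, in wild-type (blue) and Atf6a-/- (orange) animals; filled points were called and the black bar is the median of the list. The medians of the cytosolic lists lie between -0.25 and 0.49, and those of the ER chaperones at 2.07 and 1.07.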

How the data were processed

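Total RNA of 12 livers, taken after a fast of 4 h, was hybridised to 1-colour Affymetrix arrays, 1 animal per array. The authors deposited log2 values, which the labels credit to RMA with the affy package beside limma, with no versions given: background subtraction, quantile normalization over the arrays, and summary of probes into probesets. Quantile normalization sets the arrays to nearly 1 distribution (medians 4.98 to 5.11), so a shift of all genes would not be seen. The values carry no counts, and the number of arrays limits the precision.

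Of 45101 probesets 64 controls were left out. Genes came from the platform annotation: 34945 tested probesets name 1 gene, 932 several and 9160 none here. A probeset ending in _x_at may share probes with other transcripts. Each gene was represented by its brightest probeset. The log2 values were fitted in limma 3.58.1 (R 4.3.3) with 1 mean per group over all 12 arrays, 5 contrasts and eBayes, and checked on simulated data. Calls needed an adjusted p under 0.05 and over 1.5-fold. With 3 arrays a group, permuting labels gives no p below 0.1, so no such test was made. The labels name separate animals for each array. Animal numbers recur in each group but did not pair the arrays. Named were all members and, per list and contrast, the 3 called genes with the largest t, plus Bag3, Dnaja1, Stip1 and Hspe1. Members and lists were chosen with earlier results of these data known. Normalization, centring, variance model, filters, thresholds, left-out arrays and the methods' t-test were varied.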

Additional observations from a re-analysis of the deposited data

How the results depend on the processing

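With 3 arrays a group, only changes well above 1.5-fold could be called for variable genes such as Hspa1b. Under 28 alternatives the calls of 1438902_a_at and 1426645_at of Hsp90aa1 held in both genotypes. Of 284 counts of member probesets, 268 stayed within 1.5 times, where a count of 0 that stayed 0 was taken as unchanged. The only main counts other than 0 were 3 lower in wild-type and 4 lower in Atf6a-/- animals with TM. For the rest no ratio can be formed. Under TM, Atf6a-/- against wild-type animals, 2 were lower with only the arrays of that contrast, and 2 higher and 3 lower at an unadjusted p and over 1.5-fold, by limma and by the methods' t-test alike. With vehicle, 2 were higher on that basis by either test. For TM in Atf6a-/- animals the adjusted t-test gave 2 lower. Without probesets ending in _s_at, _x_at or _a_at, 1 was lower in each genotype, since fewer were tested, and with 1 probeset per gene 1 was lower in wild-type and 2 in Atf6a-/- animals. Leaving out 1 array, the count raised by TM in wild-type animals ran from 0 to 1, and the count higher in Atf6a-/- animals with vehicle from 0 to 1, the 1 in each case without wild-type vehicle animal 2. Without the 4 arrays with Y-linked signal, an alternative chosen after seeing the data, 2 rose with TM in wild-type and 3 were lower in Atf6a-/- animals under TM. The cause was not tested.

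With the animal number as a replicate block, which the labels do not tie to a shared litter or day (correlation of same-numbered arrays -0.48 to 0.39, 6 of 18 above 0.1; 5 of 12 arrays correlated best with their own number), the count of lower probesets was 3 in wild-type and 3 in Atf6a-/- animals, where Hspa1b was lost (-1.18, adjusted p = 0.0689).

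Of 2974 differences of the 22 probesets recomputed, 18 lost and 23 gained a call, and 169 changed sign, none of them called in either setting and none over 0.45 in size. Of those the text gives, for TM in Atf6a-/- animals Dnajb1 became -0.16 with quantile normalization, -0.035 with cyclic loess and -0.034 centred on Btf3 and Ppia (named with Gm9234), which put Hspa8 at -0.064. For TM in wild-type animals Dnajb1 became 0.11 with array weights. Without the arrays with Y-linked signal, wild-type differences became 0.41 for Dnajb1, -0.0061 for Hspb8, 0.0025 for Hspa8, 0.45 and 0.45 for Hspb1 and 0.28, 0.28 and 0.12 for Hspa1b, and Hspb8 in Atf6a-/- animals -0.017. Leaving out 1 array, wild-type differences ran from -0.085 to 0.22 for Hspb8, -0.21 to 0.40 for Dnajb1, -0.30 to 0.24 and -0.32 to 0.28 for Hspb1, -0.83 to 0.19, -0.78 to 0.13 and -0.66 to 0.016 for Hspa1b, and -0.0049 to 0.58 for Hsph1. In Atf6a-/- animals they ran from -0.11 to 0.085 for Hspa8 and -0.056 to 0.12 for Dnajb1. Centring moved no median over all probesets or genes by 0.1. The restriction to the arrays of a contrast and the t-test could not be run for the difference between the responses.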
